A study of Homo sapiens with 12 samples.

Results

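Integrins, laminins and matrix glycoproteins are the genes by which a cell holds on to its surroundings, and 32 of the 11178 genes listed in the deposited expression table belong to these families. The members were chosen by gene symbol, with earlier results of these data known. They are 11 integrin subunits, 7 laminin chains and 14 matrix glycoproteins and proteoglycans. All 32 passed the filter on low values. The cells were U251-APP, an astrocytic human glioblastoma line with stable expression of mutant APP (amyloid precursor protein), carried by all groups. In CTCF-A KO and CTCF-B KO cells, Cas9 and a pair of guides had removed one or the other of 2 binding sites for the chromatin protein CTCF, and edited cells had been grown from single cells after puromycin and mCherry selection. Wild-type (WT) U251-APP cells were the comparison, although their treatment label also reads CRISPR/Cas9 editing. Total RNA was sequenced from 4 libraries per group, 12 in all, and the labels do not say whether the 4 came from separate clones or separate cultures. The p-values therefore measure only how these libraries vary, which may be technical variation, and a difference between a clone and WT cannot be told apart from one made by the deletion.

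An integrin is a pair of one alpha and one beta subunit that spans the membrane and ties the matrix outside to actin or intermediate filaments inside. Laminins are trimers of an alpha, a beta and a gamma chain that polymerise into basement membranes, where nidogen and the heparan sulphate proteoglycans perlecan and agrin bind them. Fibronectin, tenascin, thrombospondins, fibulins and versican make up the interstitial matrix, and in glioma several of them are known from vessel walls and from invading cells.

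Depth is unknown, because the files give normalised log2 values from 1.34 to 17.97 and no read counts. Taken back to the linear scale, the values of a library summed, in units of 1e6, to between 16.95 and 19.42. The CTCF-A KO libraries differed among themselves more than the others did. The median gene stood 0.06 to 0.21 (log2) from the rest of its group in a CTCF-A KO library, 0.04 to 0.06 in a CTCF-B KO library and 0.04 to 0.07 in a WT library. Genes in the top decile of GC content stood above genes in the bottom decile by 0.96, 0.45, 0.66 and 0.06 in CTCF-A KO replicates 1 to 4, each set against the WT mean, while the same measure ran from -0.10 to 0.03 in CTCF-B KO and from -0.15 to 0.09 in WT. Of 11 astrocyte and glioma markers, 8 had values (GFAP, VIM, NES, FABP7, SOX2, SOX9, SLC1A3 and EGFR). S100B, AQP4 and ALDH1L1 had no row. The summed linear value of the 8 was 90760 to 104300 in CTCF-A KO, 77740 to 81260 in CTCF-B KO and 135800 to 157800 in WT. A sum does not show which of the 8 changed. No microglial or oligodendrocyte marker of the 5 in each list had a row, and 1 marker each of the endothelial (KDR), epithelial (KRT18) and fibroblast (COL1A1) lists did. KDR was at 500.8 to 631.7 in CTCF-A KO, 673.5 to 732.4 in CTCF-B KO and 1198 to 1276 in WT on the linear scale. COL1A1 was at 454.1 to 510.4 in CTCF-A KO, 723.5 to 764.1 in CTCF-B KO and 940.6 to 1047 in WT, and KRT18 at 369.0 to 450.8 in CTCF-A KO, 359.1 to 387.9 in CTCF-B KO and 463.2 to 505.0 in WT. The part of these shifts in the results was not tested. In a bulk library, fewer cells of a type and less RNA per cell cannot be told apart.

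Members went both ways in CTCF-A KO, and most of those that passed in CTCF-B KO were lower. Against WT, 17 of the 32 members were higher and 8 lower in CTCF-A KO, and 3 were higher and 22 lower in CTCF-B KO, by limma's moderated test with Benjamini-Hochberg adjustment over all genes at 0.05. Over all 11128 genes tested, 62.9% passed in CTCF-A KO (31.8% higher, 31.1% lower) and 39.4% in CTCF-B KO (18.9% higher, 20.6% lower). The median log2 change of the members was 0.16 in CTCF-A KO, where that of all genes was 0.005, and -0.34 in CTCF-B KO, where that of all genes was 0.002. A change of at least 0.5 (log2) was called for 15 members in each knockout, where 18.8% of all genes reached it in CTCF-A KO but 7.57% in CTCF-B KO. A change of at least 1 was called for 5 members in each, with 2.23% of all genes in CTCF-A KO but 1.42% in CTCF-B KO. Both comparisons rest on the same 4 WT libraries. In the direct comparison, 22 members were higher and 3 lower in CTCF-A KO than in CTCF-B KO, with a median of 0.48, and 66% of all genes passed that test (33.4% higher, 32.6% lower). There, 16 members differed by at least 0.5 (23.7% of all genes) and 6 by at least 1 (3.26% of all genes).

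**Figure D1:**
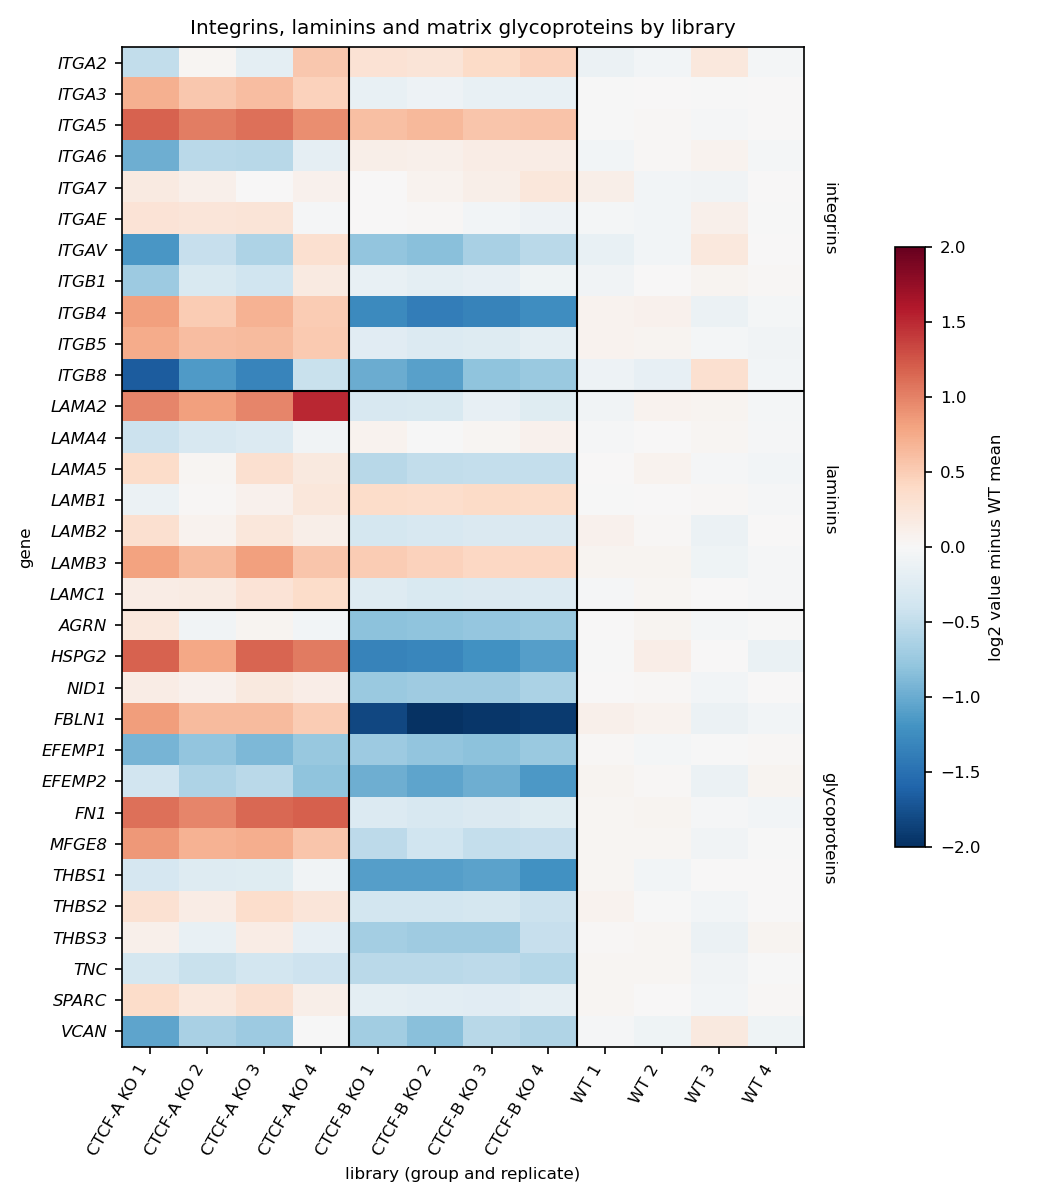
Each cell shows a member's log2 value minus the mean of the 4 WT libraries, for the CTCF-A KO, CTCF-B KO and WT libraries from left to right and members grouped by family. FBLN1, HSPG2, ITGB4 and MFGE8 are above the WT mean in all 4 CTCF-A KO libraries and below it in all 4 CTCF-B KO libraries, and the fourth CTCF-A KO library differs from the other 3 for ITGAV, ITGB8, ITGB1, ITGA2 and VCAN.

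**Figure D2:**
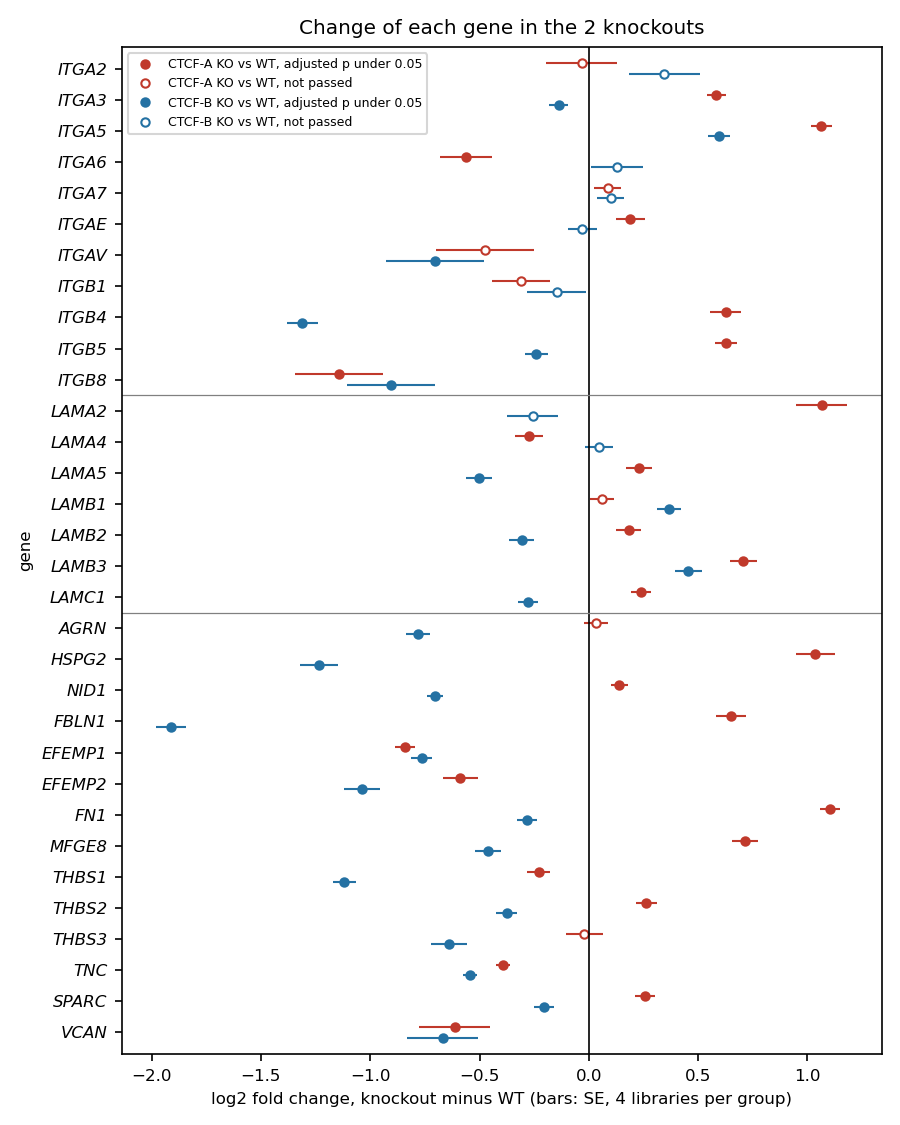
Points are log2 changes against WT for CTCF-A KO and CTCF-B KO with bars of 1 standard error from the limma model, and filled points passed at an adjusted p of 0.05. All 14 glycoproteins lie below 0 in CTCF-B KO, while integrins and laminins lie on both sides in each knockout.

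With the trend in GC content and transcript length removed from each library, 14 members were higher and 10 lower in CTCF-A KO (28.8% and 32.7% of all genes), and 5 were higher and 21 lower in CTCF-B KO (25.9% and 27.5%). Between the knockouts, 21 were higher and 4 lower in CTCF-A KO (32.8% and 35.5%). All CTCF-A KO libraries lay above or below all WT libraries for 21 of the 32 members, where this held for 47.7% of all genes. In CTCF-B KO it held for 29 members, against 53.6% of all genes, and between the knockouts for 24 members, against 53.5%.

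Among the alpha subunits, ITGA5 rose in both knockouts. ITGA5, which pairs with ITGB1 as the classical fibronectin receptor, lies on the minus strand of chromosome 12 at 54395261 to 54419460 (GRCh38). Its log2 values were 12.73, 12.57, 12.65 and 12.48 in CTCF-A KO, then 12.15, 12.20, 12.10 and 12.11 in CTCF-B KO, and 11.54, 11.57, 11.52 and 11.55 in WT. The 3 groups did not overlap, with CTCF-A KO highest and WT lowest. The log2 change was 1.06 ± 0.05 (SE, 4 libraries per group) in CTCF-A KO, with an adjusted p of 4.56e-09, and 0.60 ± 0.05 in CTCF-B KO, with an adjusted p of 8.45e-07. Its partner ITGB1, the beta subunit shared by most laminin, collagen and fibronectin receptors, had 12.76, 13.19, 13.10 and 13.67 in CTCF-A KO, then 13.34, 13.29, 13.33 and 13.40 in CTCF-B KO, and 13.42, 13.50, 13.54 and 13.51 in WT. The CTCF-A KO values spread on both sides of WT, because replicate 4 was above every WT library and the other 3 were below. Its log2 change did not pass in CTCF-A KO (-0.31, adjusted p 0.0585) or in CTCF-B KO (-0.15, adjusted p 0.417). All CTCF-B KO libraries lay below WT, but the groups share an error estimate. The SD was 0.38 in CTCF-A KO, 0.04 in CTCF-B KO and 0.05 in WT. The change in CTCF-A KO was -0.48 without replicate 4 (adjusted p 6.5e-05) and -0.04 with the GC and length trend removed (0.636), and replicate 4 alone gave 0.18.

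ITGA3, a laminin receptor subunit, had 15.97, 15.81, 15.88 and 15.73 in CTCF-A KO, then 15.11, 15.16, 15.12 and 15.11 in CTCF-B KO, and 15.25, 15.28, 15.26 and 15.27 in WT. It was higher in CTCF-A KO by 0.58 ± 0.04 (adjusted p 2.81e-07), or 0.38 with the GC and length trend removed. In CTCF-B KO it was lower by a small amount, a log2 change of -0.14 ± 0.04 with an adjusted p of 0.0243, and this call was lost when any one of 5 libraries was left out (CTCF-B KO replicates 1, 3 and 4, WT replicates 2 and 4; adjusted p 0.0566 to 0.0606) and with the GC and length trend removed, where the change was -0.02. ITGAE, the alpha subunit that with ITGB7 binds E-cadherin in lymphocytes, was higher in CTCF-A KO by 0.19 (adjusted p 0.0254), a call lost without any one of CTCF-A KO replicates 1 to 3 or WT replicates 1, 2 and 4, and 0.01 with the trend removed. Of its exon bases, 6.41% overlap HASPIN on the other strand. The collagen receptor ITGA2 and the laminin receptor ITGA7 passed in neither comparison with WT, with log2 changes of -0.03 and 0.09 in CTCF-A KO and 0.35 and 0.10 in CTCF-B KO. With the trend removed, ITGA2 passed in both, at 0.38 in CTCF-A KO, with 0.36 in CTCF-B KO. Its 0.35 in CTCF-B KO also passed without CTCF-A KO replicate 1 (adjusted p 0.0381) or 4 (0.00895), whose group shares in the error.

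The hemidesmosome pair ITGA6 and ITGB4 came apart. ITGB4, whose long tail reaches keratin filaments in epithelia and whose only known partner is ITGA6, lies on the plus strand of chromosome 17 at 75721328 to 75757818. ITGB4 had 15.48, 15.16, 15.35 and 15.16 in CTCF-A KO, then 13.38, 13.27, 13.33 and 13.42 in CTCF-B KO, and 14.73, 14.74, 14.55 and 14.62 in WT. All CTCF-A KO libraries were above WT and all CTCF-B KO libraries were below it. It rose by 0.63 ± 0.07 in CTCF-A KO (adjusted p 9.34e-06), or 0.41 with the GC and length trend removed, and in CTCF-B KO it fell by 1.31 ± 0.07 on the log2 scale (adjusted p 1.67e-08). Between the knockouts the difference was 1.94 ± 0.07, a 3.83-fold higher level in CTCF-A KO, with an adjusted p of 2.92e-10.

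ITGA6 had 9.48, 9.92, 9.90 and 10.28 in CTCF-A KO, then 10.57, 10.55, 10.60 and 10.61 in CTCF-B KO, and 10.40, 10.48, 10.52 and 10.42 in WT. CTCF-A KO lay below WT in every library, with replicate 4 closest, and CTCF-B KO lay just above it. The change was -0.56 ± 0.12 in CTCF-A KO (adjusted p 0.0013) and 0.13 ± 0.12 in CTCF-B KO (0.423). Once the GC and length trend was removed, the change in CTCF-A KO was -0.29 (0.000787). The log2 ratio of ITGB4 to ITGA6 averaged 5.39 ± 0.47 in CTCF-A KO, 2.77 ± 0.06 in CTCF-B KO and 4.20 ± 0.13 in WT (SD, n = 4 each), without overlap between groups. This ratio is not per length, so only its change between groups can be read. The shift of the ratio in CTCF-A KO was smaller with the trend removed, where ITGB4 was higher by 0.41 and ITGA6 was at -0.29, and the longest transcripts of these genes are 63.7% and 42.9% GC.

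The alpha v subunit and its beta partners bind fibronectin, vitronectin and latent TGF-beta. ITGB8, known for activating TGF-beta, lies on the plus strand of chromosome 7 at 20330702 to 20415754. It had 9.02, 9.55, 9.37 and 10.25 in CTCF-A KO, then 9.70, 9.61, 9.89 and 9.94 in CTCF-B KO, and 10.59, 10.52, 11.01 and 10.64 in WT. Every knockout library was below every WT library, and CTCF-A KO replicate 4 was the nearest to WT. The change was -1.14 ± 0.20 in CTCF-A KO (adjusted p 0.000372) and -0.91 ± 0.20 in CTCF-B KO (0.00316). In CTCF-A KO it was -0.67 once the GC and length trend was removed. The difference between the knockouts was -0.24 and did not pass (0.318). It passed in opposite directions under other settings, at 0.23 (0.0265) with the trend removed and -0.47 (0.0046) without CTCF-A KO replicate 4.

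ITGAV had 10.47, 11.18, 11.02 and 11.96 in CTCF-A KO, then 10.84, 10.80, 10.98 and 11.10 in CTCF-B KO, and 11.48, 11.58, 11.84 and 11.64 in WT. The CTCF-A KO range enclosed that of WT, whereas CTCF-B KO lay below WT. It fell in CTCF-B KO, by 0.70 ± 0.22 on the log2 scale (adjusted p 0.0239), a call lost without CTCF-B KO replicate 1 (0.0577) or 2 (0.0635) or WT replicate 3 (0.0658) or 4 (0.0507). The groups share an error estimate, and the SD of ITGAV was 0.61 in CTCF-A KO, 0.14 in CTCF-B KO and 0.15 in WT. The change of ITGAV in CTCF-A KO was -0.48 ± 0.22 (0.0786). That value was -0.74 without replicate 4 (adjusted p 2.24e-04), -0.03 with the GC and length trend removed (0.813) and 0.32 with replicate 4 alone, so no direction can be read from it.

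ITGB5, the vitronectin receptor subunit, had 11.27, 11.14, 11.15 and 11.05 in CTCF-A KO, then 10.30, 10.25, 10.27 and 10.32 in CTCF-B KO, and 10.59, 10.57, 10.48 and 10.45 in WT. The groups did not overlap, with CTCF-A KO above WT and CTCF-B KO below it. ITGB5 rose by 0.63 ± 0.05 in CTCF-A KO (adjusted p 6.04e-07), and in CTCF-B KO its change was -0.24 ± 0.05 (0.00252). The log2 ratio of ITGB5 to ITGB8 averaged 1.60 ± 0.61 in CTCF-A KO, 0.50 ± 0.14 in CTCF-B KO and -0.17 ± 0.26 in WT (SD, n = 4 each).

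**Figure D3:**
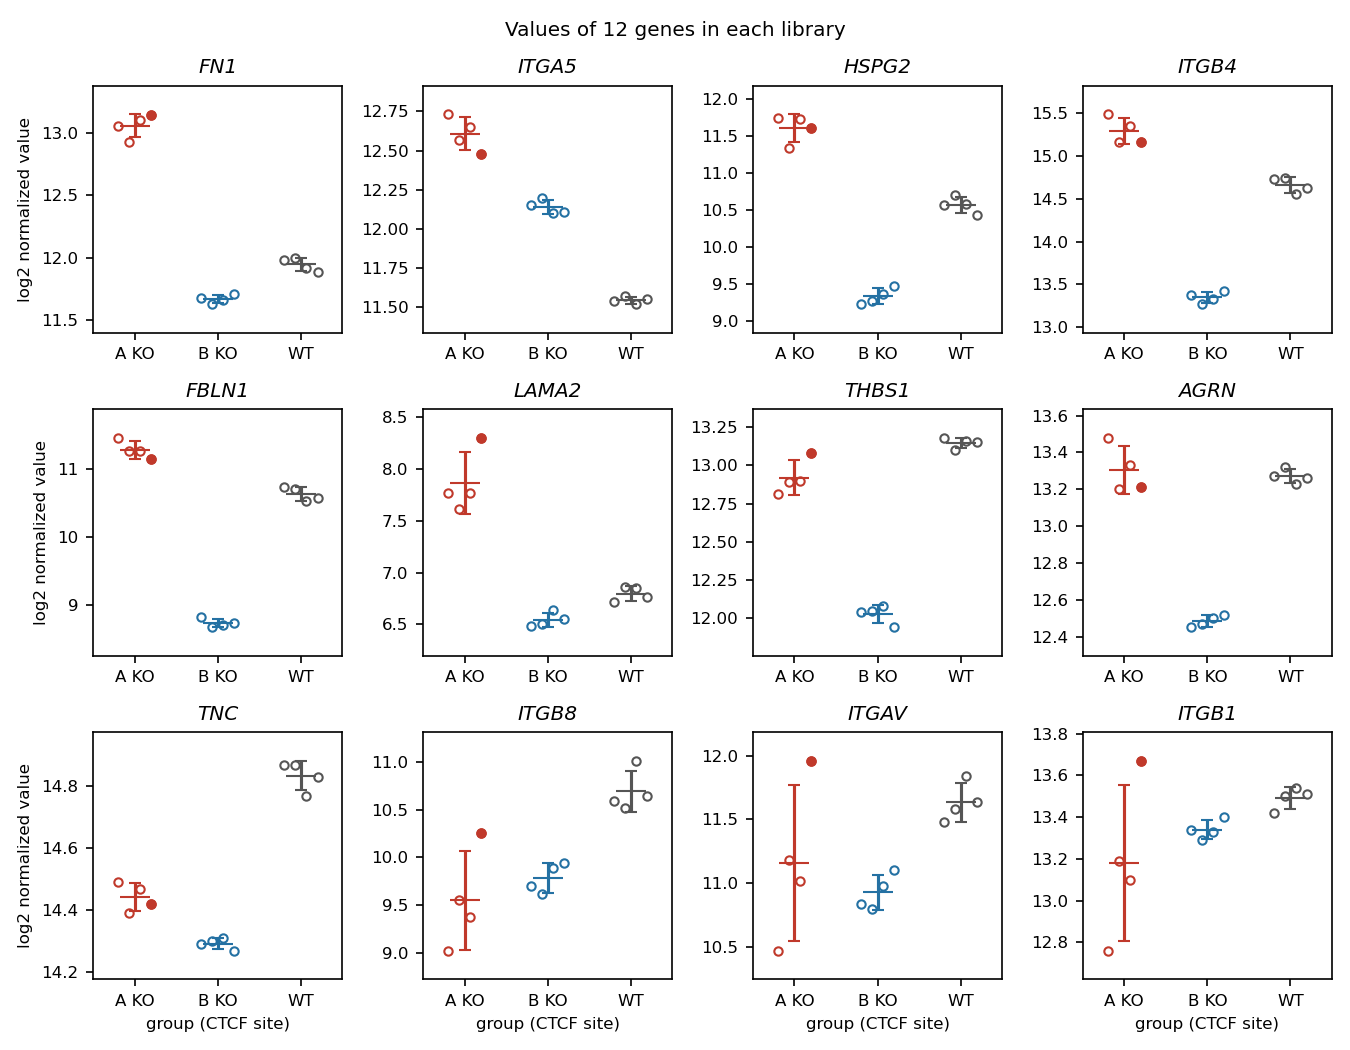
Log2 values of selected members in each library, with CTCF-A KO, CTCF-B KO and WT from left to right, the bar and whiskers giving the group mean and 1 SD, and the filled point marking CTCF-A KO replicate 4. ITGB4, HSPG2 and FBLN1 stand above WT in CTCF-A KO and below it in CTCF-B KO, whereas ITGB8 stands below WT in both.

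Per kilobase of merged exon (GENCODE 29), the linear values showed which subunits made up most of each class. ITGB4 made up 74.8% ± 5.7 of the beta subunit total in CTCF-A KO, 43.8% ± 0.52 in CTCF-B KO and 62.9% ± 2.1 in WT (SD, n = 4 each). ITGB1 made up 20.1% ± 5.6 of it in CTCF-A KO, 49.0% ± 0.46 in CTCF-B KO and 31.5% ± 1.8 in WT. The beta subunit with the largest share was thus ITGB4 in CTCF-A KO and WT, and ITGB1 in CTCF-B KO. In CTCF-A KO the log2 changes of ITGB4 and ITGB1 were 0.63 and -0.31, but 0.41 and -0.04 with the GC and length trend removed. Among alpha subunits ITGA3 made up 79.9% ± 2.3 in CTCF-A KO, 73.6% ± 0.47 in CTCF-B KO and 76.7% ± 0.76 in WT, and ITGA5 made up 10.9% ± 0.32 in CTCF-A KO, 12% ± 0.28 in CTCF-B KO and 7.53% ± 0.17 in WT. These are shares of mRNA by merged exon length with the GC trend in place, and say nothing of protein or of which pairs formed.

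**Figure D4:**
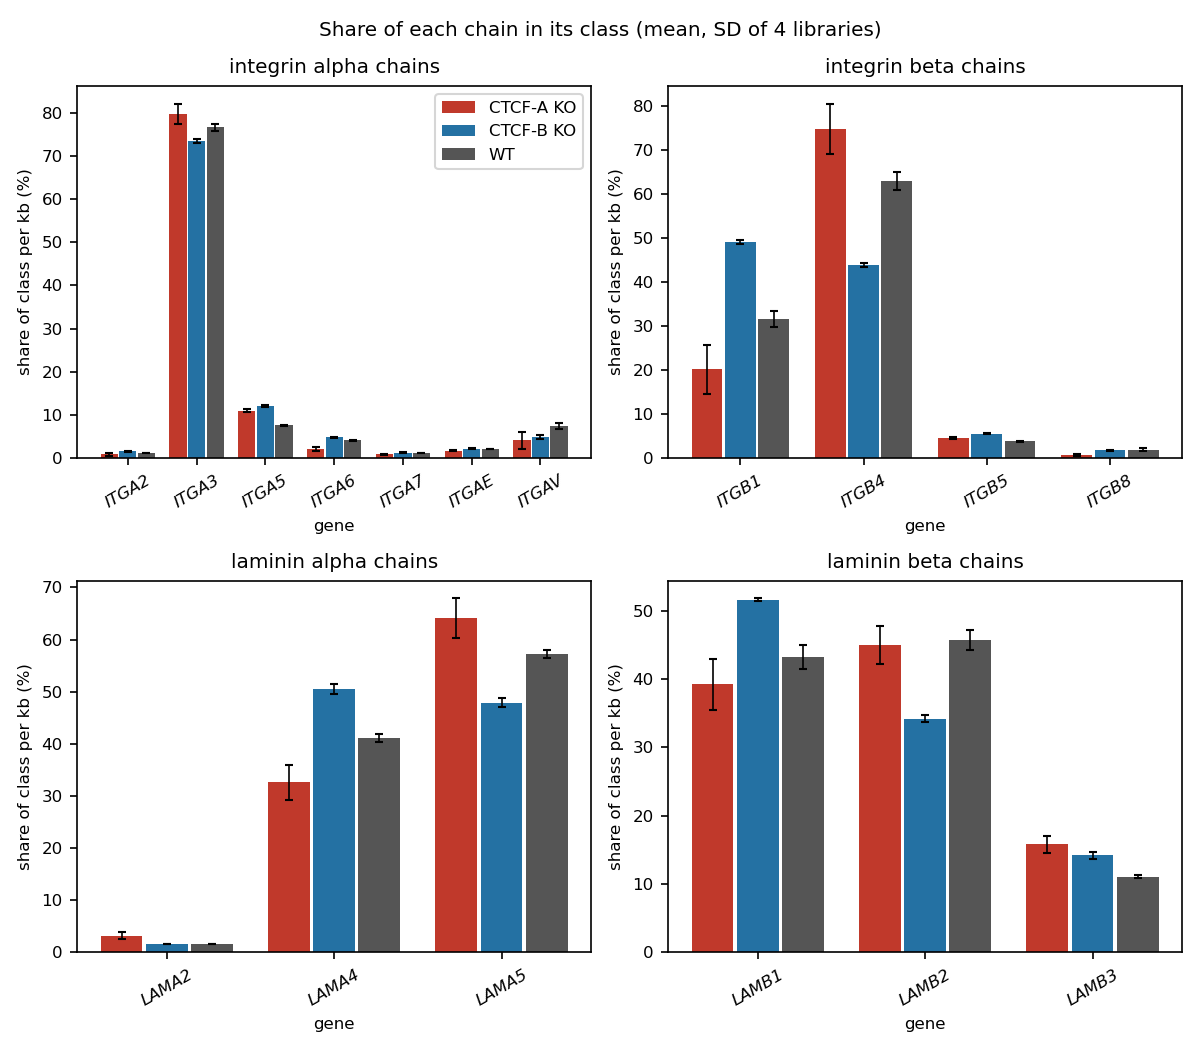
Bars from 0 show each subunit's mean percentage of its class total, in linear value per kilobase of merged exon, with error bars of 1 SD over 4 libraries and groups in the order CTCF-A KO, CTCF-B KO, WT. The GC trend was left in place. ITGB4 has the largest beta share in CTCF-A KO and WT, and ITGB1 in CTCF-B KO. LAMA5 has the largest laminin alpha share in CTCF-A KO and WT, and LAMA4 in CTCF-B KO.

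Over all members, the secreted collagen-binding protein SPARC had the highest level per kilobase in every group, with 9752 ± 738 in CTCF-A KO, 7072 ± 76.6 in CTCF-B KO and 8153 ± 224 in WT (SD, n = 4 each). ITGA3 and ITGB4 came next in WT, at 4013 ± 40.9 and 3836 ± 238, and did not differ beyond their spread. In CTCF-B KO, ITGB4 ranked 5 of 32, at 1545 ± 73.4. The lowest member in every group was LAMA2, with 22.9 ± 5.2 in CTCF-A KO, 9.0 ± 0.45 in CTCF-B KO and 10.8 ± 0.48 in WT.

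Of the 7 laminin chains, 5 were higher and 1 lower in CTCF-A KO, and 2 were higher and 3 lower in CTCF-B KO. Of all genes, 62.9% passed in CTCF-A KO, while 39.4% did in CTCF-B KO. Once the GC and length trend was removed, the laminin count was 3 higher and 2 lower in CTCF-A KO (28.8% and 32.7% of all genes). In CTCF-B KO it was then 3 higher and 3 lower (25.9% and 27.5% of all genes). LAMA2, the alpha chain of muscle and Schwann cell basement membranes, had 7.77, 7.61, 7.77 and 8.30 in CTCF-A KO, then 6.48, 6.50, 6.64 and 6.55 in CTCF-B KO, and 6.72, 6.86, 6.85 and 6.76 in WT. CTCF-A KO lay above WT in every library and CTCF-B KO below it. The rise in CTCF-A KO was 1.07 ± 0.12 (adjusted p 8.25e-06), and the change in CTCF-B KO was -0.26 ± 0.12 (0.102). The change in CTCF-B KO passed without CTCF-A KO replicate 4 (0.00467), whose group shares in the error. It did not pass with the trend removed (-0.16, adjusted p 0.12). LAMA2 lies on the plus strand of chromosome 6 at 128883141 to 129516569.

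LAMB3, the beta chain of epidermal anchoring laminin, was higher in both knockouts. It had 10.53, 10.37, 10.55 and 10.29 in CTCF-A KO, then 10.24, 10.19, 10.15 and 10.15 in CTCF-B KO, and 9.79, 9.78, 9.65 and 9.70 in WT. No knockout library overlapped WT. The change was 0.71 ± 0.06 in CTCF-A KO (adjusted p 1e-06) and 0.45 ± 0.06 in CTCF-B KO (7.85e-05), and the difference of 0.25 between the knockouts passed (0.00287) but was 0.01 with the GC and length trend removed.

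LAMA5, the alpha chain of vascular and epithelial basement membranes, had 12.78, 12.45, 12.74 and 12.62 in CTCF-A KO, then 11.87, 11.92, 11.94 and 11.94 in CTCF-B KO, and 12.42, 12.48, 12.40 and 12.37 in WT. CTCF-A KO overlapped WT through replicate 2, and CTCF-B KO lay below WT. In CTCF-B KO it fell by 0.50 ± 0.06 on the log2 scale (adjusted p 3e-05), a change of -0.18 with the GC and length trend removed. In CTCF-A KO the change was 0.23 ± 0.06 (0.0053), which turned to -0.12 (0.00474) with that trend removed. The difference between the knockouts, 0.73, was 0.06 and did not pass with the trend removed (0.149), and the longest LAMA5 transcript is 66.4% GC.

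The remaining chains changed by less than 0.4 (log2). LAMC1, the gamma chain of most laminins, averaged 13.56 ± 0.10 in CTCF-A KO, 13.04 ± 0.02 in CTCF-B KO and 13.32 ± 0.02 in WT (SD, n = 4 each), higher in CTCF-A KO (adjusted p 0.000626) and lower in CTCF-B KO (0.000347). The beta chains LAMB1 and LAMB2 went apart in CTCF-B KO. LAMB1, of early and widespread laminins, had 12.84, 12.83, 12.86 and 12.85 there and 12.47, 12.48, 12.51 and 12.46 in WT, a change of 0.37 ± 0.06 (0.000185). LAMB2, of synaptic and kidney laminins, had 11.97, 12, 12.03 and 12.03 in CTCF-B KO and 12.40, 12.34, 12.19 and 12.33 in WT, a change of -0.31 ± 0.06 (0.000907) that was -0.19 with the trend removed. Neither pair of groups overlapped. In CTCF-A KO, LAMB1 did not pass (0.06, adjusted p 0.359), and LAMB2 passed at 0.18 (0.0137) but stood at -0.02 with the trend removed. The vascular alpha chain LAMA4 had a change of -0.28 ± 0.06 in CTCF-A KO (adjusted p 0.00229) and 0.05 ± 0.06 in CTCF-B KO (0.597). With the trend removed LAMA4 was at -0.12 in CTCF-A KO (0.0062), while it was at 0.11 in CTCF-B KO and passed there (0.0153). Per kilobase, LAMA5 made up 64.1% ± 3.8 of the alpha chain total in CTCF-A KO, 47.9% ± 0.92 in CTCF-B KO and 57.2% ± 0.80 in WT (SD, n = 4 each). Merged exons of LAMA5 and LAMA4 are 14291 and 11575 bases, and their longest transcripts 11426 and 6547. Which of them has the larger share can depend on the length used. These shares were taken with the GC trend in place. With it removed, LAMA5 and LAMA4 were both at -0.12 against WT in CTCF-A KO, so the rise of the LAMA5 share there was not seen.

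The proteoglycans and linkers that bind laminin were lower in CTCF-B KO. HSPG2, which encodes perlecan, lies on the minus strand of chromosome 1 at 21822245 to 21937297. It had 11.74, 11.34, 11.73 and 11.60 in CTCF-A KO, then 9.23, 9.27, 9.36 and 9.47 in CTCF-B KO, and 10.56, 10.70, 10.58 and 10.43 in WT. The 3 groups were far apart, with CTCF-A KO highest. HSPG2 rose by 1.04 ± 0.09 in CTCF-A KO (adjusted p 8.49e-07), 0.61 with the GC and length trend removed. In CTCF-B KO it fell by 1.23 ± 0.09 on the log2 scale (2.24e-07), a change of -0.92 with that trend removed. Of its exon bases, 11.7% overlap LDLRAD2 on the opposite strand, and the strand setting of the counting is not given in the sources used here.

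AGRN, the proteoglycan that clusters acetylcholine receptors at the neuromuscular junction, had 13.48, 13.20, 13.33 and 13.21 in CTCF-A KO, then 12.45, 12.47, 12.50 and 12.52 in CTCF-B KO, and 13.27, 13.32, 13.23 and 13.26 in WT. CTCF-A KO spread around WT and CTCF-B KO lay below it. AGRN fell by 0.78 ± 0.06 in CTCF-B KO (adjusted p 1.76e-07), a change of -0.58 with the trend removed. Its change of 0.03 in CTCF-A KO did not pass (0.599), though it was -0.22 and passed with the trend removed. NID1, nidogen, which bridges laminin and collagen IV, had 11.62, 11.56, 11.67 and 11.61 in CTCF-A KO, then 10.74, 10.76, 10.76 and 10.84 in CTCF-B KO, and 11.49, 11.50, 11.43 and 11.49 in WT. In CTCF-B KO it fell by 0.70 ± 0.04 on the log2 scale (1.74e-08), below every WT library. In CTCF-A KO it was higher by 0.14 (0.007), a call lost with the trend removed (0.07, adjusted p 0.0772).

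All 14 glycoproteins and proteoglycans were lower in CTCF-B KO by the test, with a median log2 change of -0.69, where 20.6% of all genes were lower. In CTCF-A KO 7 were higher and 5 lower, where 31.8% of all genes were higher and 31.1% lower. Once the GC and length trend was removed, 6 rose and 6 fell there by the test (28.8% and 32.7% of all genes). FN1, fibronectin, lies on the minus strand of chromosome 2 at 215360440 to 215436172. It had 13.05, 12.93, 13.10 and 13.14 in CTCF-A KO, then 11.68, 11.63, 11.66 and 11.71 in CTCF-B KO, and 11.98, 12, 11.92 and 11.89 in WT. CTCF-A KO was above WT in all libraries and CTCF-B KO below it. FN1 rose by 1.10 ± 0.05 in CTCF-A KO (adjusted p 2.35e-09), a 2.15-fold higher level, and fell by 0.28 ± 0.05 on the log2 scale in CTCF-B KO (0.000374).

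FBLN1, fibulin-1, which binds fibronectin and laminin, gave the largest change of any member. It lies on the plus strand of chromosome 22 at 45502238 to 45601135. It had 11.47, 11.28, 11.27 and 11.15 in CTCF-A KO, then 8.82, 8.67, 8.70 and 8.73 in CTCF-B KO, and 10.74, 10.71, 10.53 and 10.58 in WT. The groups did not overlap. FBLN1 rose by 0.65 ± 0.07 in CTCF-A KO (adjusted p 5.55e-06), and in CTCF-B KO it fell by 1.91 ± 0.07 on the log2 scale, a 3.76-fold lower level (4.2e-10). The difference between the knockouts was 2.56 ± 0.07 (3.06e-11).

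The other fibulins were lower in both knockouts. EFEMP1, fibulin-3, had 9.71, 9.85, 9.74 and 9.88 in CTCF-A KO, then 9.91, 9.85, 9.81 and 9.90 in CTCF-B KO, and 10.66, 10.59, 10.63 and 10.66 in WT, with changes of -0.84 ± 0.05 in CTCF-A KO (adjusted p 2.12e-08) and -0.77 ± 0.05 in CTCF-B KO (5.61e-08). The knockouts overlapped each other and stood apart from WT. EFEMP2, fibulin-4, an elastic fibre protein, had 8.53, 8.29, 8.37 and 8.11 in CTCF-A KO, then 7.94, 7.85, 7.94 and 7.77 in CTCF-B KO, and 8.97, 8.93, 8.79 and 8.96 in WT, with changes of -0.59 ± 0.08 in CTCF-A KO (adjusted p 5.24e-05) and -1.04 ± 0.08 in CTCF-B KO (5.17e-07). Here the knockouts differed too, by 0.45 (0.00033).

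The thrombospondins, which bind CD36, CD47 and latent TGF-beta to different extents, fell in CTCF-B KO. THBS1, an inhibitor of vessel growth, lies on the plus strand of chromosome 15 at 39581079 to 39599466. It had 12.81, 12.89, 12.90 and 13.08 in CTCF-A KO, then 12.04, 12.05, 12.08 and 11.94 in CTCF-B KO, and 13.18, 13.10, 13.16 and 13.15 in WT. Both knockouts lay below WT, CTCF-A KO only just. In CTCF-B KO it fell by 1.12 ± 0.05 on the log2 scale (adjusted p 4.84e-09), and the change in CTCF-A KO was -0.23 ± 0.05 (0.00229) and -0.01 with the GC and length trend removed.

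THBS3 had 8.47, 8.22, 8.52 and 8.21 in CTCF-A KO, then 7.69, 7.66, 7.67 and 7.91 in CTCF-B KO, and 8.40, 8.41, 8.26 and 8.43 in WT, and changed by -0.64 ± 0.08 in CTCF-B KO (6.06e-05). Of its exon bases, 22.2% overlap an antisense gene and 3.16% overlap MTX1. THBS2 averaged 10.48 ± 0.08 in CTCF-A KO, 9.84 ± 0.04 in CTCF-B KO and 10.21 ± 0.05 in WT (SD, n = 4 each), higher in CTCF-A KO (adjusted p 0.00044) and lower in CTCF-B KO (4.59e-05).

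TNC, tenascin-C, abundant in glioma matrix, and VCAN, versican, a hyaluronan-binding proteoglycan, were lower in both. TNC had 14.49, 14.39, 14.47 and 14.42 in CTCF-A KO, then 14.29, 14.30, 14.31 and 14.27 in CTCF-B KO, and 14.87, 14.87, 14.77 and 14.83 in WT, with changes of -0.39 ± 0.03 in CTCF-A KO (adjusted p 8.13e-07) and -0.54 ± 0.03 in CTCF-B KO (5.33e-08). VCAN had 10.89, 11.29, 11.22 and 11.93 in CTCF-A KO, then 11.25, 11.11, 11.39 and 11.34 in CTCF-B KO, and 11.92, 11.86, 12.14 and 11.85 in WT. Its CTCF-A KO replicate 4 fell within WT and the other 3 below it. The change was -0.61 ± 0.16 in CTCF-A KO (adjusted p 0.00585) and -0.67 ± 0.16 in CTCF-B KO (0.00559). In CTCF-A KO it was -0.23 (0.0119) with the GC and length trend removed, and replicate 4 alone gave -0.02.

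MFGE8, lactadherin, an ITGAV ligand that bridges phagocytes to dying cells, had 11.20, 11.02, 11.06 and 10.88 in CTCF-A KO, then 9.81, 9.93, 9.85 and 9.87 in CTCF-B KO, and 10.36, 10.37, 10.26 and 10.32 in WT. CTCF-A KO lay above WT and CTCF-B KO below it. It rose by 0.71 ± 0.06 in CTCF-A KO (adjusted p 7.07e-07) and changed by -0.46 ± 0.06 in CTCF-B KO (5.45e-05). SPARC changed by 0.26 ± 0.05 in CTCF-A KO (adjusted p 0.000481) and -0.20 ± 0.05 in CTCF-B KO (0.00371), and 7.89% of its exon bases overlap an antisense gene.

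CTCF-A KO replicate 4 stood apart from the other 3 mainly in members of low GC content. By the decile measure above, it was the only CTCF-A KO library with a GC trend in the WT range (0.06, with -0.15 to 0.09 in WT). Replicates 1 to 3 had 0.96, 0.45 and 0.66. Values without replicate 4 therefore rest on the CTCF-A KO libraries whose GC trend differed most from WT. The difference between replicate 4 and the mean of replicates 1 to 3 ran from 0.11 to 1.07 (median 0.70) in the 8 members under 45% GC, and from -0.29 to 0.58 (median -0.11) in the other 24, a division chosen after the values were seen. Across the 32 members Pearson's r between GC content and this difference was -0.77 and Spearman's rho -0.72, and across 11096 genes r was -0.62 and rho -0.65. These points are genes of the same libraries and are not independent replicates. The 8 members are ITGAV, ITGB8, ITGB1, ITGA2, ITGA6, VCAN, FN1 and EFEMP1. The difference was 0.11 for FN1 and also for EFEMP1, while LAMA2, at 46.5% GC, had 0.58. What this did to the comparisons was not tested beyond the values without replicate 4 and with the trend removed.

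**Figure D5:**
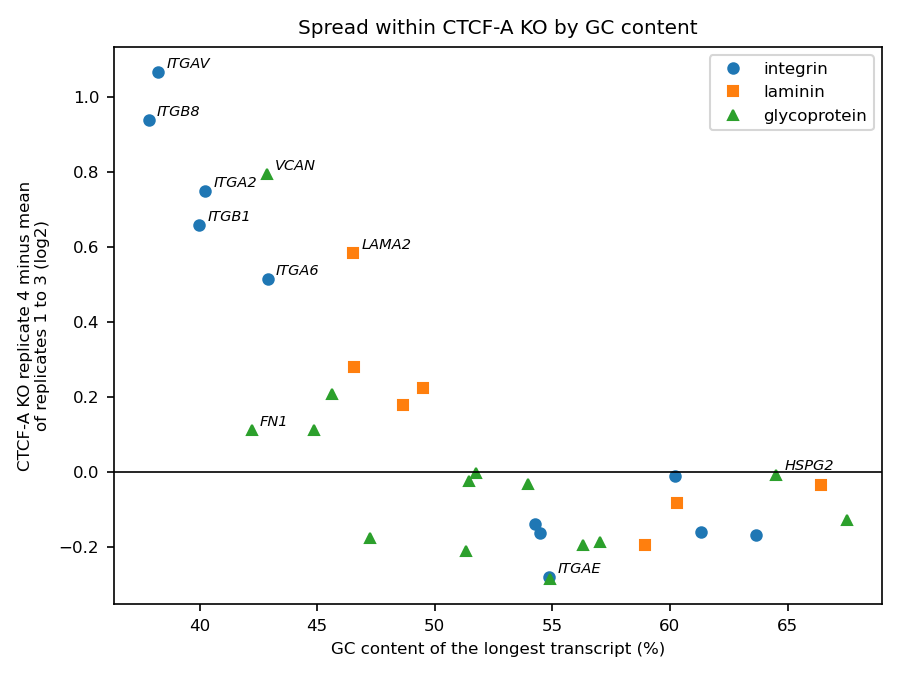
Each point is a member, with the GC content of its longest transcript in percent on the horizontal axis and its log2 value in CTCF-A KO replicate 4 minus the mean of replicates 1 to 3 on the vertical axis. The 8 members under 45% GC lie between 0.11 and 1.07, and the other 24 between -0.29 and 0.58.

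Genes around the members were read as a description of each locus. Within 5 Mb on either side, the 93 tested genes near ITGB4 had a median log2 change of 0.34 in CTCF-A KO, the 82 near FBLN1 also 0.34, and the 40 near MFGE8 0.53, where MFGE8 itself changed by 0.71. In CTCF-B KO, the median was 0.05 near ITGB4, -0.12 near FBLN1 and -0.16 near MFGE8. The 67 genes near THBS1 had a median of -0.28 in CTCF-B KO, against -1.12 for THBS1. In CTCF-A KO the median was -0.38 for the 22 genes near ITGB1 and -0.41 for the 24 near ITGAV, where ITGB1 was at -0.31 and ITGAV at -0.48. At other loci the median in CTCF-A KO was far from the value of the member. The 22 genes near LAMA2 had a median of -0.31 where LAMA2 rose by 1.07, the 42 near FN1 had 0.10 where FN1 rose by 1.10, and the 138 near ITGA5 had 0.12 where ITGA5 rose by 1.06. These medians were taken with the GC trend in place, and the neighbours were not read with it removed. With it removed, ITGB1 was at -0.04 and ITGAV at -0.03 in CTCF-A KO. ITGB4 was at 0.41, FBLN1 at 0.44 and MFGE8 at 0.55 there. The part of the neighbourhood, copy number included, and of the GC trend in these values was not tested.

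Promoter sequence was read from RefSeq (GRCh38.p14) for the 250 bases before the annotated start, and 27 of the 32 members matched, with 36 windows. The 5 printed here are members with the values above. HSPG2 and LAMC1 were higher in CTCF-A KO and lower in CTCF-B KO, and LAMA2 passed in CTCF-A KO, where it was higher. LAMA5 and THBS1 were lower in CTCF-B KO. In CTCF-A KO, LAMA5 overlapped WT, and its change of 0.23 became -0.12 after correction for GC and length. The same correction took THBS1 there from -0.23 to -0.01. Capitals mark the GC box of SP1 (GGGCGG) and the TEAD motif (GGAATG) on either strand, overlapping matches included. The windows, given 5′ to 3′ on the gene's strand, are HSPG2 at chr1:21937311-21937560 (minus), LAMA5 at chr20:62367313-62367562 (minus), LAMC1 at chr1:183023170-183023419 (plus), THBS1 at chr15:39580829-39581078 (plus) and LAMA2 at chr6:128882888-128883137 (plus).
HSPG2: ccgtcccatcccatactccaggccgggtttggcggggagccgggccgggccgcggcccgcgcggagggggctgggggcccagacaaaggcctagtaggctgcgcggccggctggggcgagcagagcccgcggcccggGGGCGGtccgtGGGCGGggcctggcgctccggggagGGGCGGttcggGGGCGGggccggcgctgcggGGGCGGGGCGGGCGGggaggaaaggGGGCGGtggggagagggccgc
LAMA5: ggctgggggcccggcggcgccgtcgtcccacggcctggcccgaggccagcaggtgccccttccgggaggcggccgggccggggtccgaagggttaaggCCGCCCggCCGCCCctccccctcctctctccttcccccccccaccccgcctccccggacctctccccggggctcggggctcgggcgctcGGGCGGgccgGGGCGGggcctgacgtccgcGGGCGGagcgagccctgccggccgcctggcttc
LAMC1: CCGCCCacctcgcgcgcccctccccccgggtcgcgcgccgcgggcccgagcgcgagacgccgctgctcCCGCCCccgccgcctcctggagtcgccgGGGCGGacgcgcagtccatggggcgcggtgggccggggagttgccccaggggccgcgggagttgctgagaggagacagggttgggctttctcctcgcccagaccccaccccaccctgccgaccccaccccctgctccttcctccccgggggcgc
THBS1: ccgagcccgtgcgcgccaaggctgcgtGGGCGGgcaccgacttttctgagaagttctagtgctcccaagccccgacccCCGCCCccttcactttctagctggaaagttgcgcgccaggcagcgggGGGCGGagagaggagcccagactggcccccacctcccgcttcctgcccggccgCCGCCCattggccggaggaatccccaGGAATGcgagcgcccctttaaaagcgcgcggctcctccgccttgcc
LAMA2: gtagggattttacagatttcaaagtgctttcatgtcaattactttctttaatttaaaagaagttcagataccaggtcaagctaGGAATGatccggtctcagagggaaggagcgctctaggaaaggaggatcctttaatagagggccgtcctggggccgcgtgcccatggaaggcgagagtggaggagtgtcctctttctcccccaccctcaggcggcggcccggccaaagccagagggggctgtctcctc

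The HSPG2 window held 8 GC boxes, that of LAMA5 5, that of LAMC1 3 and that of THBS1 4, and THBS1 and LAMA2 had 1 TEAD motif each. LAMA2 held no GC box. The windows of HSPG2 and LAMA5 were 82.8% GC and that of LAMA2 53.2%. Of the 36 windows, 26 held a GC box, 7 a TEAD motif, 1 the AP-1 motif TGANTCA, 1 the E-box CACGTG and 3 the letters TATAAA. Among all 35116 promoters in the table the shares were 42.6%, 11.9%, 6.6%, 6.3% and 10.7%, and among the 12319 of tested genes 65.5%, 9.6%, 4.1%, 8.4% and 5.3%. A match is a description of letters, and no match says only that these letters are not in the window.

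Genes that act with the members came from 5 lists, and their counts stand against those over all genes. Of these, 31.8% rose and 31.1% fell in CTCF-A KO, while 18.9% rose and 20.6% fell in CTCF-B KO. Counts with the GC and length trend removed stand against other shares. These were 28.8% higher and 32.7% lower in CTCF-A KO, and 25.9% higher and 27.5% lower in CTCF-B KO. Of 20 tested integrin adaptors and focal adhesion genes, 11 were higher and 7 lower in CTCF-A KO, and 1 was higher and 8 lower in CTCF-B KO. The median log2 change was 0.13 in CTCF-A KO, with -0.12 in CTCF-B KO. Once the GC and length trend was removed, 8 were higher and 5 lower in CTCF-A KO, and 3 higher and 9 lower in CTCF-B KO. NEDD9, a docking protein at focal adhesions, changed by -0.81 ± 0.04 in CTCF-A KO (adjusted p 4.95e-09) and -1.09 ± 0.04 in CTCF-B KO (3.33e-10). The actin linkers TNS3 and VCL fell in CTCF-B KO, by 0.79 ± 0.04 and 0.61 ± 0.04 on the log2 scale, and FHL2 changed by -0.29. In CTCF-A KO the actin cross-linkers ACTN1 and ACTN4 rose by 0.51 and 0.47 and the kinase SRC by 0.39, and the trend-removed values of ACTN4 and SRC were 0.28 and 0.20.

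Of 17 tested matrix receptors other than integrins, 12 were higher and 4 lower in CTCF-A KO, and 3 were higher and 8 lower in CTCF-B KO. The median log2 change was 0.26 in CTCF-A KO, with -0.08 in CTCF-B KO. With the trend removed, 9 were higher and 3 lower in CTCF-A KO, and 7 higher and 8 lower in CTCF-B KO. The 3 receptors higher in CTCF-B KO were 6 without CTCF-A KO replicate 4, and 2 to 4 without any other single library. The heparan sulphate carriers SDC1, GPC1 and SDC4 rose in CTCF-A KO, by 0.99 ± 0.05, 0.94 ± 0.07 and 0.75 ± 0.06, while SDC2 changed by -0.85 in CTCF-A KO, with -0.74 in CTCF-B KO. GPC4 fell by 1.31 ± 0.03 on the log2 scale in CTCF-B KO (adjusted p 4.61e-11), GPC1 changed by -0.40 there and the laminin alpha 5 receptor BCAM by -0.72.

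Of 18 tested proteases and inhibitors, 11 were higher and 6 lower in CTCF-A KO, and 7 were higher and 7 lower in CTCF-B KO. The median log2 change was 0.49 in CTCF-A KO, with -0.11 in CTCF-B KO. With the trend removed, 10 were higher and 7 lower in CTCF-A KO, and 7 higher and 8 lower in CTCF-B KO. ADAMTS4, an aggrecanase, rose by 1.32 ± 0.06 in CTCF-A KO, TIMP4 by 1.38 ± 0.08 and TIMP2 by 0.70 ± 0.05, while ADAM12 changed by -1.12 ± 0.05. In CTCF-B KO the plasminogen activator PLAU changed by -1.10 ± 0.05 and the membrane protease MMP15 by -1.14 ± 0.10, whereas the inhibitor SERPINE2 rose by 1.16 ± 0.05 and the receptor PLAUR by 0.71 ± 0.06.

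All 5 tested basement membrane collagens were lower in CTCF-B KO, and 3 were higher and 1 lower in CTCF-A KO. The median log2 change was 0.20 in CTCF-A KO, with -0.33 in CTCF-B KO. With the trend removed, 4 were lower in CTCF-B KO, and 2 were higher and 2 lower in CTCF-A KO. COL18A1, the source of endostatin, averaged 12.05 ± 0.16 in CTCF-A KO, 10.11 ± 0.05 in CTCF-B KO and 11.61 ± 0.08 in WT (SD, n = 4 each), with changes of 0.45 in CTCF-A KO (adjusted p 1.33e-04, or 0.21 with the trend removed) and -1.49 in CTCF-B KO (4.62e-09). The collagen IV chains COL4A1 and COL4A2 were higher in CTCF-A KO by 0.20 and 0.31, which became 0.05 and 0.09 with the trend removed. COL4A2 changed by -0.33 in CTCF-B KO (-0.18 with the trend removed) and COL4A6 by -0.46 there, and COL4A5 changed by -0.24 in CTCF-A KO, with -0.28 in CTCF-B KO.

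Of 10 tested other matrix glycoproteins, 7 were higher and 0 lower in CTCF-A KO, and 2 were higher and 6 lower in CTCF-B KO. Their median log2 change was 0.38 in CTCF-A KO, with -0.21 in CTCF-B KO. With the trend removed, 8 were higher and 1 lower in CTCF-A KO, and 2 higher and 5 lower in CTCF-B KO. LTBP1, which holds latent TGF-beta in the matrix, rose by 0.37 ± 0.04 in CTCF-A KO, with 1.13 ± 0.04 in CTCF-B KO. TGFBI, an integrin ligand induced by TGF-beta, rose by 0.81 ± 0.04 in CTCF-A KO, LTBP3 by 0.75 and MATN2 by 0.39, and in CTCF-B KO the microfibril protein FBN1 changed by -1.004 ± 0.10 and MATN2 by -0.65, whereas SPP1, the integrin ligand osteopontin, rose by 0.55 ± 0.05 (adjusted p 4.08e-06).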

How the data were processed

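RNA sequencing of 12 libraries of U251-APP cells (4 each of CTCF-A KO, CTCF-B KO and WT, grouped by their titles) gave normalised expression values that the authors had deposited as log2 values, judged by their range and fractions. The submitters' processing notes name Trimmomatic 0.33, featureCounts, DESeq2 and the builds GRCh38.p7 and hg38. The aligner, annotation, strand setting and transformation are not given in the sources used here, and depth is unknown. The plan had assumed linear values; the log2 values were used as deposited.

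Genes at a linear value of at least 10 in at least 4 libraries were kept (11128, with 50 removed). A single model of the 3 groups was fitted with limma 3.58.1 in R 4.3.3 (trended empirical Bayes), tested two-sided with Benjamini-Hochberg adjustment over all kept genes at 0.05, and checked on simulated data. The groups share an error estimate, so a comparison of CTCF-B KO with WT also carries the spread of the CTCF-A KO libraries. Fold changes are differences of log2 means, and errors after them are standard errors. Identifiers were matched to GENCODE 29 (11151 of 11178). The GC and length trend was fitted in each library by splines with 5 and 4 degrees of freedom.

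The members and the lists were chosen with earlier results of these data known. A member was described library by library when it passed in a comparison with WT with a log2 change of at least 0.5 and did not overlap WT, or was a partner subunit; the other members are given for completeness. From each list, up to 4 genes with the smallest adjusted p in each comparison with WT were named.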

Additional observations from a re-analysis of the deposited data

Results flagged for a closer look

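Of 96 groups of 4 libraries (32 members in 3 groups), 5 held 1 library far from the other 3, whose gap to the nearest of them, as a part of the group's range, was above Dixon's critical value, and chance alone flags about 1 group in 20. THBS3 was at 7.91 in CTCF-B KO replicate 4, where the other 3 libraries ran from 7.66 to 7.69. In WT, THBS3 was at 8.26 in replicate 3, where the others ran from 8.40 to 8.43. NID1 was at 11.43 in WT replicate 3, against 11.49 to 11.50 in the others. ITGAE was at 9.46 in CTCF-A KO replicate 4, against 9.72 to 9.76 in the others. ITGA3 was at 15.16 in CTCF-B KO replicate 2, against 15.11 to 15.12 in the others.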

How the results depend on the processing

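Over the 96 member values (32 members in 3 comparisons), all kept their direction and their side of the threshold with no filter, with a linear minimum of 50, with a pseudocount of 10 and without the mean-variance trend. The number of members higher in CTCF-B KO than in WT, 3 in the model reported, was 5 with the GC and length trend removed, 6 with the trend removed and a replicate block, 5 with the 8 libraries compared alone and 5 where replicate 4 stood alone for CTCF-A KO. Under that last setting 5 members, not 8, were lower in CTCF-A KO than in WT. With 1 library left out in turn, 3 to 7 members were lower in CTCF-A KO than in CTCF-B KO, the 7 without CTCF-A KO replicate 4.

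Some values changed sign. In CTCF-A KO against WT, quantile normalisation gave AGRN -0.06, THBS3 0.064, ITGA2 0.072, SPARC -0.033 and LAMB1 -0.047. It gave ITGA3 0.016 in CTCF-B KO against WT, and VCAN -0.011, TNC -0.172 and ITGA7 0.075 between the knockouts. Median centring moved the median of all genes to 0.087 in CTCF-A KO against WT, where THBS3 was 0.062 and ITGA2 0.05, and to 0.061 between the knockouts, where ITGA7 was 0.053. Removing the GC and length trend gave AGRN -0.22, LAMB2 -0.016, ITGA2 0.384, ITGA7 -0.111 and LAMA5 -0.124 in CTCF-A KO against WT, and ITGA2 0.024, ITGB8 0.227, TNC -0.044 and ITGB1 0.131 between the knockouts, with or without the replicate block. With replicate 4 alone for CTCF-A KO, AGRN was -0.061, ITGAV 0.323, ITGA2 0.53, ITGB1 0.183 and ITGAE -0.023 against WT, and EFEMP1 0.006, ITGA2 0.184, ITGB8 0.469 and ITGB1 0.331 against CTCF-B KO. In that setting the lone library is assumed to vary like the other groups. Leaving out 1 library gave a range of -0.024 to 0.069 for AGRN, -0.219 to 0.122 for ITGA2 and -0.076 to 0.029 for THBS3 in CTCF-A KO against WT, of -0.048 to 0.003 for ITGAE in CTCF-B KO against WT, and of -0.047 to 0.028 for ITGA7, -0.04 to 0.455 for ITGAV and -0.142 to 0.202 for VCAN between the knockouts. The cause of these changes was not tested.

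Libraries of the same number did not deviate together in every pair (correlations from -0.319 to 0.433). The differing GC trends of the CTCF-A KO libraries enter these correlations, so they cannot tell whether libraries were paired. The labels do not say that they were. With the replicate block, 27 members (17 higher, 10 lower) passed in CTCF-A KO, 25 in CTCF-B KO and 26 between the knockouts, adding ITGAV and ITGB1 in CTCF-A KO, and ITGA2 between the knockouts. Depth could not be read from the files, so no counting error can be set beside the lowest member, LAMA2.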
